A study of Mus musculus with 2 samples.

Results

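Mucin and goblet cell genes are described here as 10 named genes: the gel-forming mucins Muc5ac and Muc5b, the mucus-associated secreted proteins Clca1, Fcgbp, Tff1, Tff2 and Itln1, the endoplasmic reticulum protein Agr2, and the transcription factors Spdef and Foxa3. They were chosen by symbol, and each matched 1 of the 31053 genes listed for both libraries. Lung cells came from 2 genotypes of mice aged 5 weeks, both carrying floxed alleles of Lkb1, a kinase gene whose symbol is Stk11. The control mice were Lkb1f/f, without Cre. The other mice were Nkx2.1 Cre;Lkb1f/f, in which Cre is driven from Nkx2.1, a transcription factor gene of the lung epithelial lineage. Cells of 3 mice per genotype were pooled into a single library, called the control or the Cre library below, and read by droplet sequencing of transcript 3′ ends. As each genotype has a single library, nothing here could be tested against replicates, and the genotype cannot be told apart from the particular mice, pool and library. Every interval below is a 95% interval for counting error only: exact conditional Poisson intervals for ratios of levels and Clopper-Pearson intervals for shares. The intervals of levels leave out the uneven spread of UMIs over cells. For a share of 0, the upper limit given is 3 cells of the total.

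Airway mucus is a gel of large glycosylated mucins released from granules of goblet and other mucous secretory cells. MUC5B and MUC5AC are its main polymers in the airways. Club cells, which secrete secretoglobins, can take on a mucous state under type 2 cytokines such as IL-13, and SPDEF and FOXA3 are transcription factors of that state.

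Captured transcripts were counted by unique molecular identifiers (UMIs), 74219499 over 13587 control barcodes and 81598779 over 16821 Cre barcodes, of which 12455 and 14675 were kept as cells. A cell was called secretory where Scgb1a1, Scgb3a1 and Scgb3a2 together made up at least 2% of its UMIs, and the other cells were placed in types by marker genes. This gave 257 secretory control cells (2.06% of the kept cells, 1.82 to 2.33%) and 290 Cre cells (1.98%, 1.76 to 2.21%), with median depths of 30100 and 23166 UMIs. All 8 club cell markers, among them Cyp2f2 and Cbr2, stood higher in the secretory cells than in the other kept cells of both libraries, at summed levels of 16071 and 13725 CPM (UMIs per 1000000 UMIs of the class). None of the 9 AT2 markers did. Of the 10 ciliated markers, 9 also stood higher in the secretory cells than in the other kept cells of both libraries. By marker scores alone, 178 control and 163 Cre secretory cells would have been placed as AT2-like, and 11 in each library as ciliated-like. The secretory gate took precedence over these scores. The secretoglobins made up a median of 58.6% of the UMIs of a control secretory cell and 40.3% of a Cre cell, so all other genes gain on the CPM scale: the median gene was 1.46-fold higher in the Cre library (log2 0.55), and 1.04-fold with the 3 secretoglobins taken out of the total. Markers of other cells differed between the libraries too. In control and Cre secretory cells, the 5 erythroid markers summed to 107 and 3015 CPM and the 7 neutrophil markers to 903 and 154 CPM. The 9 alveolar macrophage markers summed to 74.6 and 639 CPM, led by Chil3, the 9 monocyte markers to 26.9 and 183 CPM, led by Fn1, and the 8 ILC2 markers to 54.2 and 174 CPM, led by Areg, with Il13 at 0 in both. Their part in the results below was not tested. The 6 basal markers summed to 43.3 and 71.8 CPM, with Krt5, Krt17 and Trp63 at 0 UMIs in the control and Krt14 at 0 in the Cre secretory cells. Stk11 itself had 136 UMIs in the control secretory cells (17.9 CPM) and 113 in the Cre cells (17.8 CPM), a ratio of 0.997 (0.770 to 1.29). In AT2-like cells it had 709 UMIs (49.5 CPM) and 460 (30.4 CPM), a ratio of 0.613 (0.544 to 0.691). The labels do not give the exons between the loxP sites, and 3′ tags can lie outside them, so neither value checks the deletion.

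Upstream sequences are shown for Spdef, the transcription factor of the mucous state, and for Agr2, a secretory pathway gene of the same cells, as examples of the start regions of the genes described. Each line holds the 250 bases before the annotated start, 5′ to 3′ on the gene's strand, from RefSeq on GRCm38.p6. They lie at chr17:27728952-27729201 (minus strand) and chr12:35992675-35992924 (plus strand).
Spdef: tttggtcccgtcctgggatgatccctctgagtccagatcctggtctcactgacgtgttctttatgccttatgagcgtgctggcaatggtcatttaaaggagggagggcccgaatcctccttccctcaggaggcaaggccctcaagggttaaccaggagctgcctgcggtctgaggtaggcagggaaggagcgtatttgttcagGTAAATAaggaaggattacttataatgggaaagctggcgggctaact
Agr2: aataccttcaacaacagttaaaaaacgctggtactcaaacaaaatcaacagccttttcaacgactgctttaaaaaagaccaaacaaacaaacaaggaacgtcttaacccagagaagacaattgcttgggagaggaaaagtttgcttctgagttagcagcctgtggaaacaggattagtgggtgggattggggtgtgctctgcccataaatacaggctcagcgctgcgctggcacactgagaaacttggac

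Promoter sequences were found for 5 of the 10 genes: Spdef, Foxa3, Agr2, Fcgbp and Itln1. Muc5ac, Muc5b, Clca1, Tff1 and Tff2 were not matched. Windows of 250 bases before to 50 bases after the start were searched on both strands. A STAT6-type motif (TTC, any 4 bases, GAA) lay in 6.95% of 32841 promoters of this length, the forkhead core TGTTTAC in 3.65% and the ETS core CCGGAT in 6.04%, and each in 0 of the 5. The forkhead variant TATTTAC, searched after the sequences had been seen, lay in 3.04% of all promoters and in 1 of the 5, that of Spdef, where the capitals mark it on the reverse strand at position -47 from the start. A match is a description of these letters, not a bound site.

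In the secretory cells all 10 genes stood higher in the Cre than in the control library, each by more than 2-fold. Summed, they held 4969 UMIs in the control and 57179 in the Cre secretory cells, or 654 and 9029 CPM, a 13.8-fold ratio (13.4 to 14.2). Their share of all secretory UMIs was 0.0654% and 0.903%. Of the 11332 genes with at least 20 UMIs over both libraries, 16.4% were past 2-fold upward and 1.51% downward on this scale. Measured against the median gene these shares were 4.67% and 5.06%, and the 10 genes were again all past that fold, from 2.54-fold for Foxa3 upward. With the gate secretoglobins out of the total the shares were 5.32% and 4.41%, and again all 10 genes were 2-fold higher. All 10 passed the minimum of 20 UMIs. Tff1 and Itln1, with 0 control UMIs, and Spdef, with 19, passed it only through the Cre library, where they were high. Ranked by fold among the 11332 genes, with a floor of 3 counts where a library had 0, Tff1 had 1 gene above it, Itln1 2, Clca1 9, Fcgbp 25 and the lowest, Foxa3, 318.

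**Figure D1:**
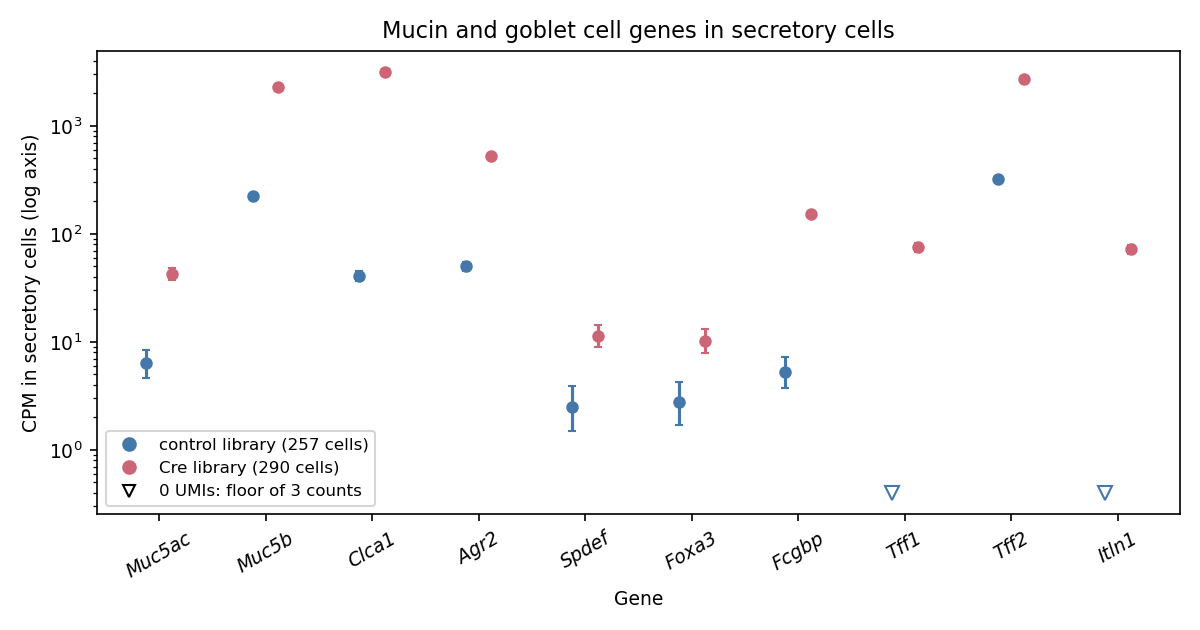
Level of each of the 10 genes in the secretory cells of the control (blue) and Cre (red) library, in CPM on a log axis, with 95% Poisson intervals of the counts, and open triangles at the floor of 3 counts where a gene had 0 UMIs. The Cre point lies above the control point for every gene, and Tff1 and Itln1 have triangles in the control library.

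The gel-forming mucins lie side by side on chromosome 7 of GRCm38 in the GENCODE M21 annotation, Muc5ac from 141788972 to 141819231 and Muc5b from 141839070 to 141873084, both on the plus strand, 19838 bases apart with no annotated gene between. Muc5b, the mucin of normal airway clearance, had 1688 UMIs in the control secretory cells (222 CPM) and 14508 in the Cre cells (2291 CPM), 10.3-fold more (9.80 to 10.8). Muc5ac, the mucin linked to allergic and irritated airways, had 48 UMIs (6.32 CPM) and 270 (42.6 CPM), 6.75-fold more (4.95 to 9.38). Both were high in the Cre library, and Muc5ac stayed a sparse transcript there, with at most 21 UMIs in a cell. Muc5b was spread over more cells: 54 control cells (21.01%, 16.2 to 26.5%) and 182 Cre cells (62.8%, 56.9 to 68.3%) had a UMI of it. For Muc5ac these were 23 (8.95%) and 76 cells (26.2%).

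Depth bears on such shares, so each cell was also thinned to 1000 UMIs, which left out 16 control and 25 Cre secretory cells below that depth. A Muc5ac or Muc5b UMI was then found in 7.05% of 241 control cells (4.16 to 11.1%) and 46.0% of 265 Cre cells (39.9 to 52.2%), against 21.4% and 62.8% at the cells' own depth. B-like cells, which should lack mucins, gave 0.0558% in the control and 0.733% in the Cre library after thinning, and 0.222% and 1.33% at their own median depths of 3081 and 2027 UMIs. The secretory shares lay far above this level in both libraries.

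Among the secreted proteins of mucus, Clca1 had the widest ratio that could be measured. Clca1 (chromosome 3, 145003817 to 145032776, minus strand) is a secreted metalloprotease of goblet cells. It had 311 UMIs in the control secretory cells (40.9 CPM) and 19818 in the Cre cells (3129 CPM), 76.4-fold more (68.3 to 85.8). The control UMIs sat in 14 cells (5.45%), at most 49 in a cell, and 66.9% of them in the 5 richest. The ratio thus rests on few control cells, which its interval leaves out. The Cre UMIs sat in 87 cells (30%), with a median of 45 and a maximum of 1256 in a cell. More cells carried the transcript, and carrying cells held more of it.

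Fcgbp (chromosome 7, 28071236 to 28120862, plus strand) encodes a large mucus protein that binds the Fc part of IgG. It had 40 UMIs in the control secretory cells (5.27 CPM) and 972 in the Cre cells (153 CPM), 29.2-fold more (21.2 to 41.1). No control cell held more than 4 of them, and the richest Cre cell held 96.

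The trefoil factors are small secreted peptides of mucosal repair and lie together on chromosome 17, Tff2 from 31141049 to 31144282 and Tff1 from 31161395 to 31165277, both on the minus strand, 17112 bases apart with no annotated gene between. Tff2 had 2462 UMIs in the control secretory cells (324 CPM) and 17175 in the Cre cells (2712 CPM), 8.37-fold more (8.02 to 8.73). The 5 richest cells held 53.3% of its control and 28.1% of its Cre UMIs. Tff1 had 0 UMIs in the 257 control secretory cells, which allows up to 1.17% of such cells with a UMI, and 475 in the Cre cells (75.0 CPM), at least 190-fold more when the control class is set to 3 counts. Of the 475, 84.6% came from 5 of the 21 Cre cells that had any, so the level rests on few cells.

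Itln1 (chromosome 1, 171518122 to 171535294, minus strand) encodes intelectin, a lectin that binds microbial sugars. It had 0 UMIs in the control and 456 in the Cre secretory cells (72.0 CPM), at least 182-fold more on the same basis, in 32 cells (11.03%, 7.67 to 15.2%). Of the 456, 56.6% came from 5 of these cells. Some mouse strains carry a near-identical copy, Itln2, so reads of the copy could be counted under this name.

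Agr2 (chromosome 12, 35992907 to 36004087, plus strand) is a disulphide isomerase of the endoplasmic reticulum that is needed to make mucins in the gut. It had 380 UMIs in the control secretory cells (50.02 CPM) and 3368 in the Cre cells (532 CPM), 10.6-fold more (9.56 to 11.9). It was found in 38 control cells (14.8%) and 107 Cre cells (36.9%), and the 5 richest held 53.4% of the control and 23.6% of the Cre UMIs.

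The transcription factors were sparse in both libraries and had the narrowest ratios. Spdef (chromosome 17, 27714352 to 27728955, minus strand), an ETS factor of goblet cell differentiation, had 19 UMIs in the control secretory cells (2.50 CPM) and 72 in the Cre cells (11.4 CPM), 4.55-fold more (2.71 to 7.98). Foxa3 (chromosome 7, 19013284 to 19023538, minus strand), a forkhead factor, had 21 (2.76 CPM) and 65 (10.3 CPM), 3.71-fold more (2.24 to 6.40). No secretory cell held more than 6 UMIs of Spdef or 4 of Foxa3. Thinned to 1000 UMIs, both were found in no control cell and in 1.51% and 0.755% of Cre cells, too few to read a ratio.

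The makeup of the 10-gene sum differed as well. Tff2 made up 49.5% of its UMIs in the control and 30.04% in the Cre secretory cells, and Muc5b 34.0% and 25.4%. Clca1 made up 6.26% and 34.7%.

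Counted per cell, 162 of 257 control secretory cells (63.0%) had no UMI of any of the 10 genes, against 76 of 290 Cre cells (26.2%). At least 5 of the genes were found in 20 control cells (7.78%, 4.82 to 11.8%) and 66 Cre cells (22.8%, 18.1 to 28.0%). At least 8 were found in 0 control cells, with the same limit, and in 27 Cre cells (9.31%), and 3 Cre cells held all 10. With Tff1 and Itln1 at 0 UMIs, a control cell could hold at most 8, so this contrast partly restates their absence. Of the 27 Cre cells, 13 held exactly 8. After thinning, 12.9% of control and 51.3% of Cre cells still had at least 1 of the genes, and at least 5 in 0 and 24 cells (9.06%). The Cre cells without any of the genes were shallow at their own depth, with a median of 3179 UMIs against 16433 in such control cells.

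**Figure D2:**
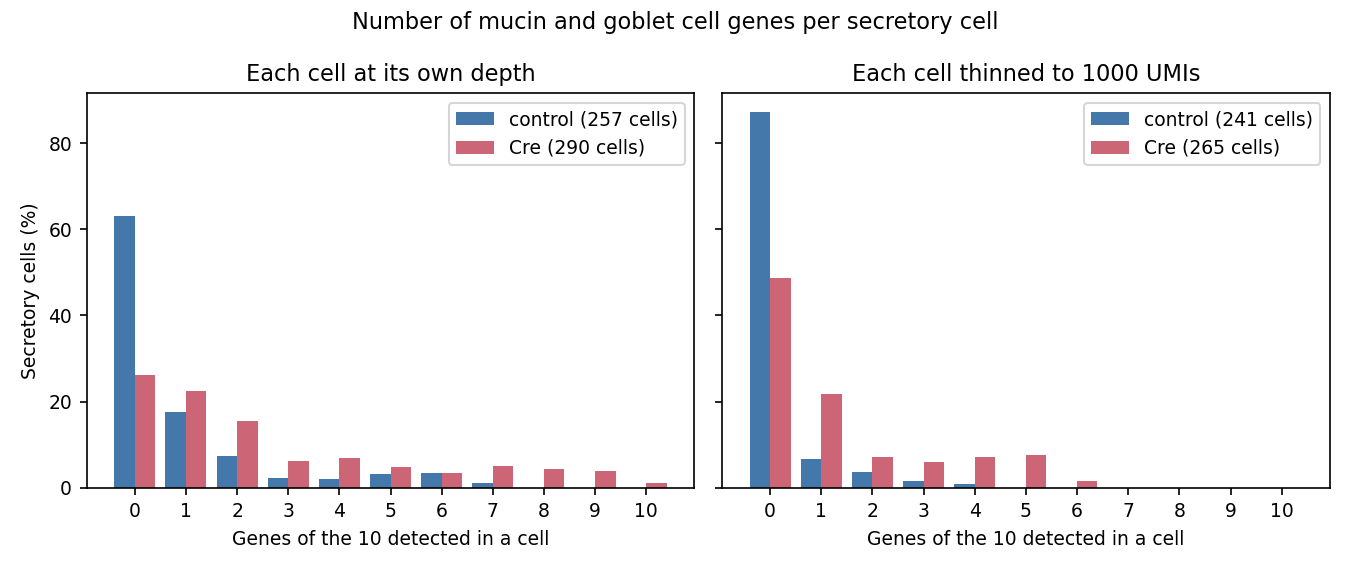
Share of secretory cells (%) by how many of the 10 genes had a UMI in the cell, for the control (blue) and Cre (red) library, at the cells' own depth (left) and after thinning to 1000 UMIs (right). Cells with none are 63.0% of the control and 26.2% of the Cre cells at their own depth, and counts of 8 or more appear in the Cre library only. Control cells had no UMI of Tff1 or Itln1, so counts above 8 could not occur there.

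Cells with at least 5 of the genes held 82.3% of the 10-gene UMIs of the control secretory cells and 91.1% of those of the Cre cells. Since such cells were picked by these UMIs, that share is a description. Scgb3a1, a secretoglobin of the larger airways that is also part of the gate, stood at 38.9 CPM in control cells with none of the 10 genes and at 50196 CPM in those with at least 5, and at 82.4 and 38423 CPM in the Cre library. Scgb1a1, the main club cell secretoglobin, had the opposite order in both libraries, at 572103 and 467656 CPM in the control and 445611 and 280249 CPM in the Cre cells. Foxj1, the transcription factor of ciliated cells, was at 29.7 and 0 CPM in these control cells and at 44.1 and 1.51 CPM in these Cre cells.

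The genes were found in the same cells more often than their single shares multiplied would give. In the control library this held for 28 of the 28 pairs of the 8 detected genes, by 1.08 to 8.78 times, and in the Cre library for 45 of 45 pairs, by 1.36 to 6.04 times. After every cell was thinned to 1000 UMIs it held for 7 of 10 pairs and 31 of 45 pairs. Muc5ac was nearly always with Muc5b, in 22 of 23 control cells and 76 of 76 Cre cells. All 14 control cells with Clca1 also had Tff2, as did 69 of 87 Cre cells, and 13 and 73 of them had Agr2. The 21 Cre cells with Tff1 all had Muc5b, Clca1 and Tff2, and the 32 with Itln1 all had Muc5b and Tff2, 31 of them with Clca1. Tff1 and Itln1 met in 14 cells, where their shares multiplied give 2.32.

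**Figure D3:**
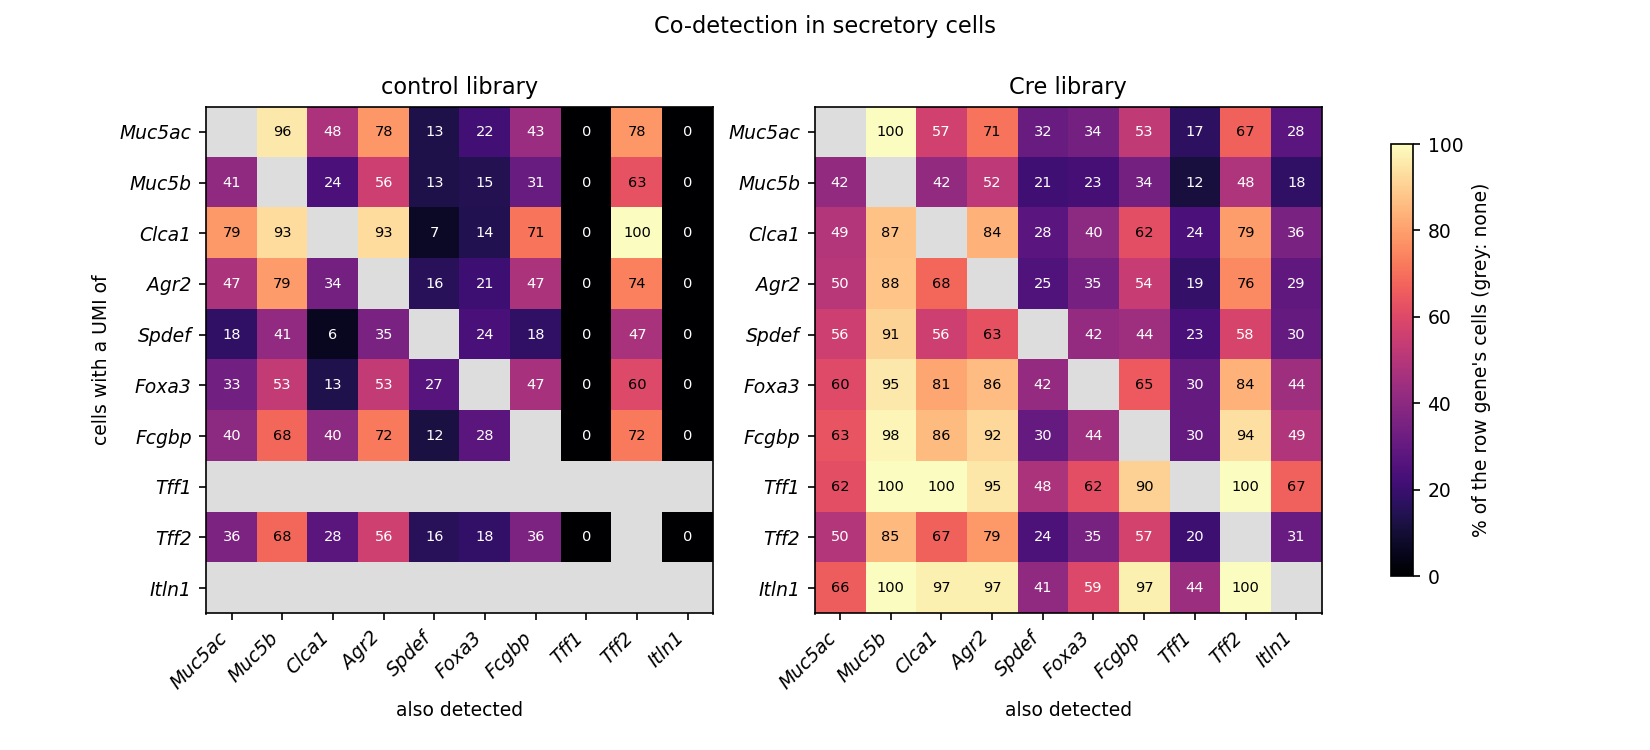
Co-detection of the genes in the secretory cells of the control (left) and Cre (right) library: each square is the share (%) of the cells with a UMI of the row gene that also had a UMI of the column gene, grey where there is no value. In the Cre library the rows of Tff1 and Itln1 reach 100% for Muc5b and Tff2, and the control library has no cell with either gene.

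Levels varied with the share of secretoglobins in the cell. Clca1 in the Cre library stood at 164 CPM in the 20 cells with 2 to 5% secretoglobin UMIs, at 5385 CPM in the 23 with 5 to 10%, 11978 CPM in the 25 with 10 to 20%, 5616 CPM in the 74 with 20 to 40%, 1152 CPM in the 107 with 40 to 60% and 6.61 CPM in the 41 above 60%. Muc5b followed a flatter course there, at 436, 3186, 5569, 2957, 1792 and 961 CPM. With the secretoglobins taken out of the total, Clca1 in the Cre library stood at 14158 CPM in the cells of 10 to 20% and at 19.1 CPM in those above 60%. In the control library Clca1 had 0 UMIs in all cells below 40%, and those of 5 to 10% and 10 to 20% were only 7 and 14 cells. Above 60% the order of the libraries was turned for the Clca1 level: 27.1 CPM in 114 control cells against 6.61 CPM in 41 Cre cells, and 84.9 against 19.1 CPM without the secretoglobins. Few cells set both levels. By share of cells with a Clca1 UMI the order was not turned, at 4.39% of those control and 12.2% of those Cre cells.

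**Figure D4:**
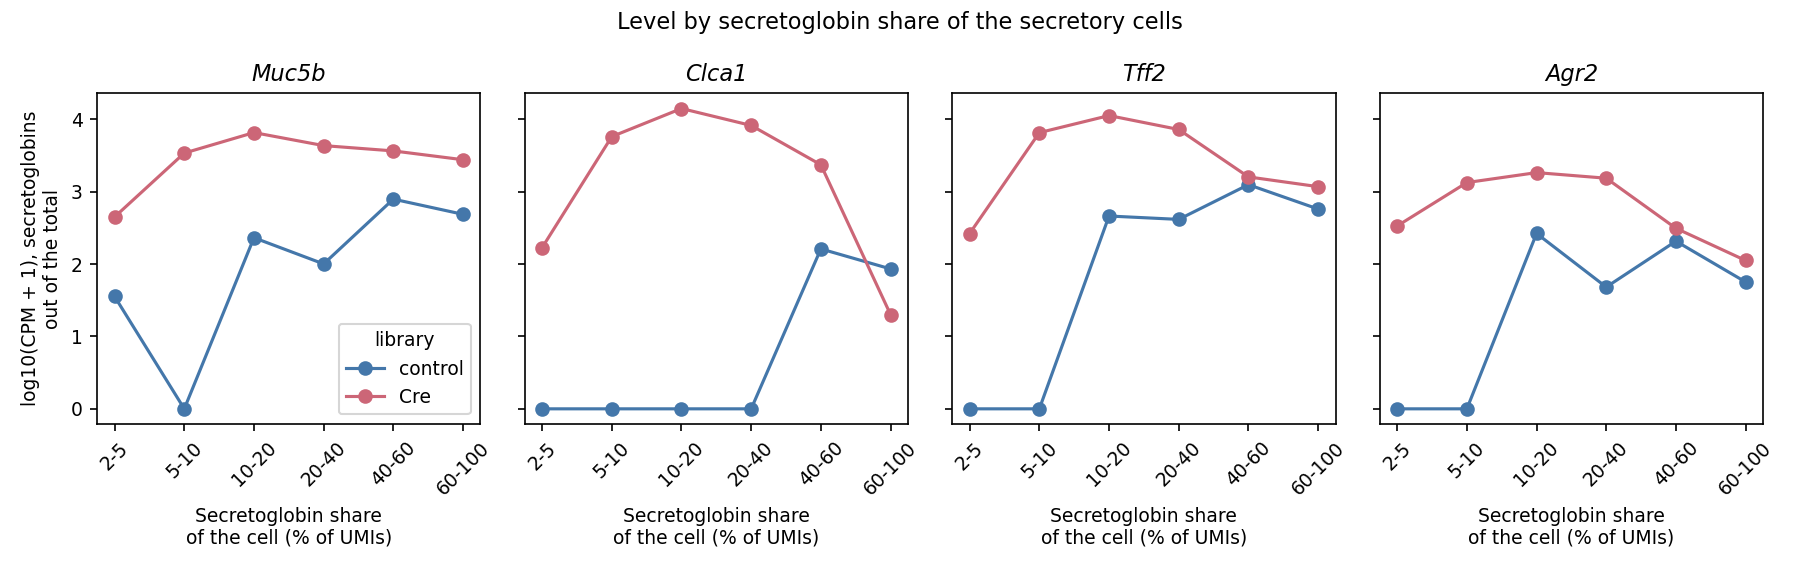
Level of Muc5b, Clca1, Tff2 and Agr2 as log10(CPM + 1), secretoglobin UMIs left out of the total, in secretory cells grouped by the share of their UMIs from secretoglobins (%), for the control (blue) and Cre (red) library. The Cre levels are highest at 10 to 20% for each of the 4 genes, and the Clca1 lines cross above 60%.

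Between 2 and 5% secretoglobin, just inside the gate, 21 control cells held 4 Muc5b UMIs (33.8 CPM), all in a single cell, and 0 of Clca1 and Agr2. In that range 20 Cre cells held 56 Muc5b UMIs (436 CPM), 21 of Clca1 (164 CPM) and 42 of Agr2 (327 CPM). These sat in 8, 5 and 3 of the 20 cells. Between 1 and 2%, just outside it, 122 control cells held 0 of all 3, and 29 Cre cells held 18 of Muc5b (132 CPM), 11 of Clca1 (81.0 CPM) and 10 of Agr2 (73.6 CPM). Each of these genes was found in only 3 of the 29 cells. Of the 18 Muc5b UMIs, 11 were in a single cell and 6 in another, so few cells set these levels.

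Across cell types the secretory cells held at least 97.6% of the kept UMIs of Muc5b, Clca1, Agr2 and Tff2 in both libraries, and 97.6% of those of Itln1 in the Cre library. Among 18 types with at least 50 cells in each library, the secretory cells had the highest level of all 10 genes in the Cre library and of 6 genes in the control library, Muc5ac, Muc5b, Clca1, Agr2, Foxa3 and Tff2. Tff1 and Itln1 had no UMI in the control secretory cells. Fcgbp in the control library stood at 5.27 CPM in the secretory and 5.38 CPM in the AT1-like cells, the latter from 2 UMIs, and Spdef at 2.50 CPM and, from 1 UMI, at 3.84 CPM in the muscle and pericyte-like cells. These neighbours did not differ beyond counting error. In the Cre library Muc5b had a UMI in all 17 other types, Clca1 and Tff2 in 16 and Agr2 in 14, against 10, 1, 9 and 5 types in the control library. Next after the secretory cells came 14.9 CPM for Muc5b in the muscle and pericyte-like cells (4 UMIs), 9.37 CPM for Clca1 in the neutrophil-like cells (20 UMIs) and 7.73 CPM for Tff2 in the ILC2-like cells (14 UMIs). Of those 14, 8 were in a single cell with 1.68% secretoglobins, and without it Tff2 stood at 3.32 CPM there, below the 5.50 CPM of the endothelial-like cells. Such low levels in every type were also those of the B-like cells, where Muc5b had 21 UMIs in 1577 Cre cells. Whether free RNA in the droplets gave them was not tested. Outside the gate, 1.14% of control and 6.34% of Cre cells had a UMI of at least 1 of the genes, and 0 and 3 cells had at least 3 of them.

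**Figure D5:**
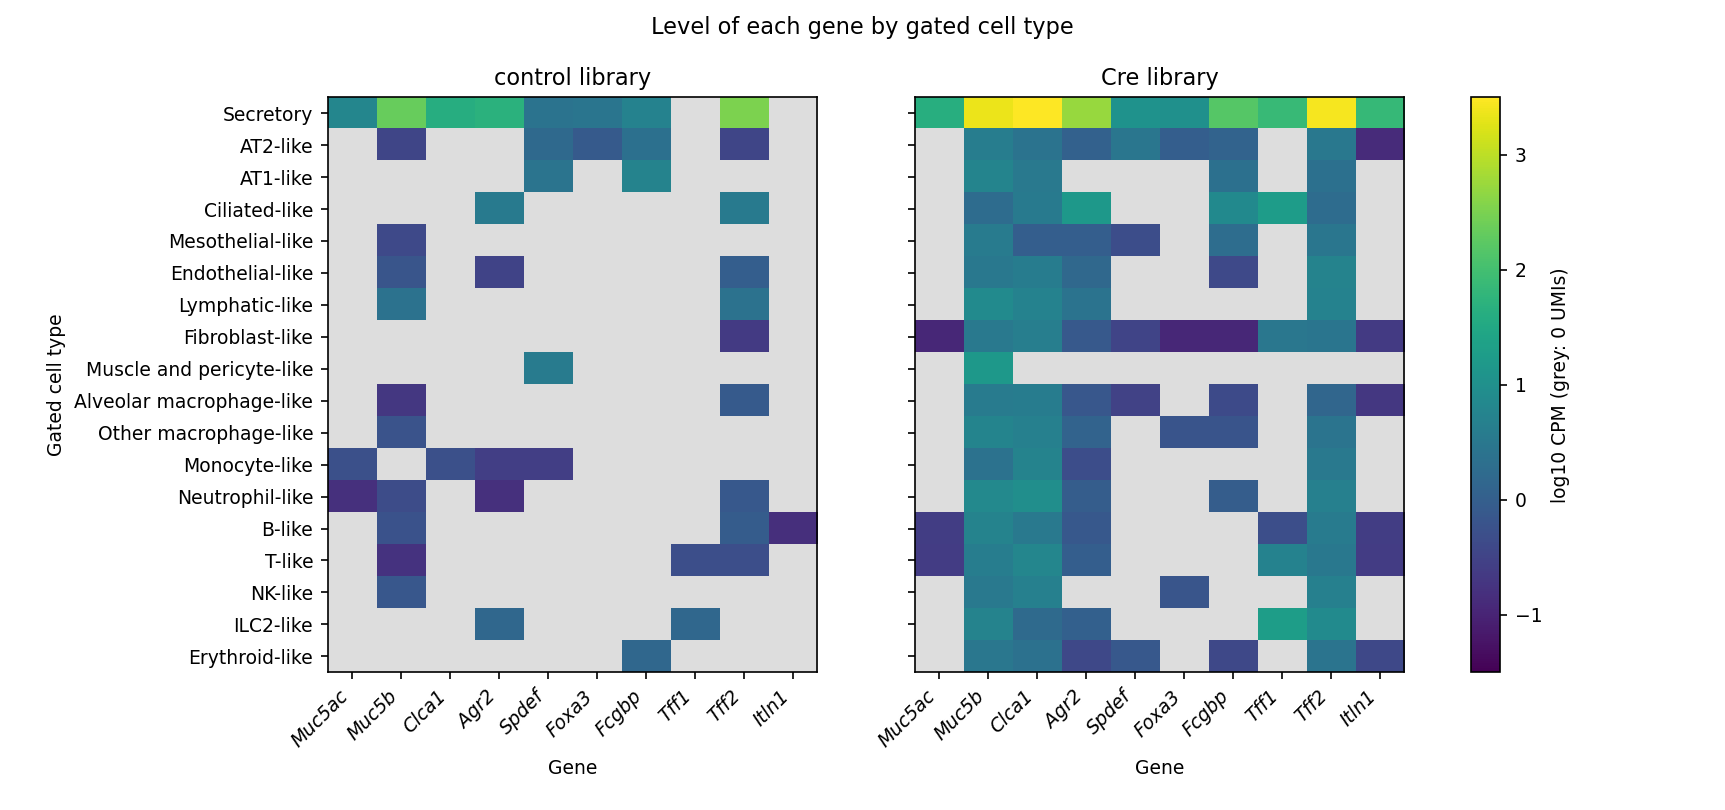
Level of each gene (columns) in the 18 cell types with at least 50 cells in each library (rows), as log10 CPM in color, grey where the type had 0 UMIs, for the control (left) and Cre (right) library. The secretory row is the brightest for all 10 genes in the Cre library, where Muc5b has a value in all 17 other types.

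Spdef, Foxa3 and Fcgbp had UMIs in alveolar cells as well. Of their kept UMIs, 42.2%, 63.6% and 53.3% came from secretory cells in the control library and 57.1%, 75.6% and 95.8% in the Cre library. Apart from Fcgbp in the Cre library, where it was 19 of 43 UMIs, most of the rest was in AT2-like cells, the surfactant-making cells of the alveolus, with at most 2 UMIs of a gene in a cell. Spdef there had 23 UMIs in 1504 control cells (1.61 CPM) and 44 in 1859 Cre cells (2.91 CPM), a ratio of 1.81 (1.07 to 3.14). Foxa3 had 12 UMIs (0.838 CPM) and 15 (0.991 CPM), a ratio of 1.18 (0.516 to 2.77). Fcgbp had 32 UMIs (2.23 CPM) and 19 (1.25 CPM), a ratio of 0.561 (0.301 to 1.02). None of these 3 was past 2-fold in AT2-like cells, where 8.15% of genes were 2-fold higher and 2.72% lower, and the intervals of Foxa3 and Fcgbp include 1. B-like cells had 0 UMIs of all 3 genes in both libraries.

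Tff1 was also found outside the epithelium. In the Cre library the ILC2-like cells, type 2 cytokine-making lymphocytes, held 35 Tff1 UMIs (19.3 CPM) in 16 of 473 cells (3.38%, 1.95 to 5.44%), at most 4 in a cell, against 1 UMI in 137 control cells. T-like Cre cells held 21 Tff1 UMIs (5.23 CPM) in 7 of 1173 cells (0.597%). T-like control cells held 3 UMIs (0.511 CPM), which gives a ratio of 10.2 (3.06 to 53.6). B-like Cre cells had a Tff1 UMI in 0.127% of cells. Thinned to 1000 UMIs the Cre shares were 1.28% for the ILC2-like, 0.262% for the T-like and 0 for the B-like cells. Of the 105 Tff1 UMIs outside the gate in the Cre library, 27 were in a single fibroblast-like cell, 10 in a single ciliated-like cell and 10 in a single T-like cell, each with no other of the 10 genes. Agr2 was found in 7 of 57 ciliated-like Cre cells (8 UMIs, 14.7 CPM) and in 2 of 78 control cells (2 UMIs, 3.61 CPM), a ratio of 4.08 whose interval, 0.815 to 39.5, includes 1.

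Genes with the most similar profile were ranked by Pearson's r of log2(CPM + 5) over 36 profiles, 18 types in each of the libraries, among 15156 genes. These profiles share libraries and depth, and the few secretory profiles set most of r. Muc5ac was most like Atp6v1b1 (0.996), Cldn22 (0.996), Ern2 (0.995), Tacr1 (0.994) and Galnt5 (0.990). Clca1 had the same 5 genes, led by Ern2 (0.959). Muc5b was most like Reg3g (0.965), an antibacterial lectin at 842 CPM in control and 8259 CPM in Cre secretory cells. Agr2 was most like Wdr72 (0.986) and Oit1 (0.976). Tff2 was most like Lgals12 (0.976), Cyp4f15 (0.971) and Scgb3a1 (0.970).

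Other genes of mucus production were read in the secretory cells from 7 lists. They were counted at 2-fold among the members with at least 20 UMIs, with no test, beside the background of 16.4% higher, or 4.67% relative to the median gene, whose log2 ratio was 0.55. A gene with fewer than 20 control UMIs can pass that minimum through the Cre library, where it had to be high: this held for 4 of the 13 higher genes of O-glycosylation, 2 of the 14 of folding and stress, 2 of the 5 regulators, 6 of the 12 of IL-4 and IL-13 and 2 of the 12 of hydration and release, so these counts are descriptions. Of the other mucins, 0 of 5 were higher and 1 was lower, with a median log2 ratio of -0.34. Muc16, a membrane mucin, had 40 UMIs in the control and 5 in the Cre secretory cells, 6.67-fold lower in CPM (2.63 to 21.7). The membrane mucins Muc1 and Muc4 were within 2-fold, at 170 and 195 CPM for Muc1 and 29.9 and 58.0 CPM for Muc4. Of the genes of mucin O-glycosylation, 13 of 24 were higher and 0 lower, with a median of 1.09, and relative to the median gene 9 were higher and 1, St6gal1, was lower (0.636, 0.410 to 0.973 in CPM). Among them, Galnt6, which starts O-glycan chains, went with 11 UMIs in the control and 81 in the Cre cells, an 8.83-fold ratio (4.68 to 18.4), and C1galt1, which extends them, with 124 and 390 UMIs, a 3.77-fold ratio (3.08 to 4.66). The fucosyltransferases Fut2 and Fut9 had ratios of 9.60 (2.91 to 49.8, from 3 control UMIs) and 4.28 (2.92 to 6.42).

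Of 25 genes of secretory folding and stress, 14 were higher and 0 lower, with a median of 1.01, but only 4 were higher relative to the median gene. These included Ern2, the stress sensor of mucous epithelia, at 11 and 51 UMIs (5.56-fold, 2.86 to 11.8), Creb3l4 at 9 and 57 (7.60-fold, 3.73 to 17.5) and Qsox1, an oxidase of disulphide bonds, at 60.02 and 227 CPM (3.78-fold, 3.40 to 4.21). Of 23 mucous cell regulators, 5 were higher and 0 lower, with a median of 0.66, and relative to the median gene 0 were higher and 2 lower. Foxa2, a forkhead factor that restrains mucous change in the airway, stood at 28.3 and 35.7 CPM, a ratio of 1.26 (1.04 to 1.53), below that of the median gene. Klf5 had the ratio 2.28 (2.08 to 2.50) and Ehf 2.11 (1.81 to 2.48).

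Of the genes of IL-4 and IL-13 signalling and the epithelial genes they induce, 12 of 24 were higher and 0 lower, with a median of 0.91, and 9 relative to the median gene. Chil4, a chitinase-like protein, had 32 and 27873 UMIs, a 1045-fold ratio (740 to 1528), and Slc26a4, an anion exchanger, had 0 and 223 UMIs, at least 89.2-fold more. Chil3 had the ratio 14.1 (12.5 to 15.9), at 38.2 and 538 CPM; it is also a marker of alveolar macrophages and stood at 1003 and 7307 CPM in the kept cells outside the gate, and the part of free RNA was not tested. The ratio of Ccl24, a chemokine for eosinophils, was 71.6 (24.1 to 350, from 3 control UMIs). The receptor chain Il4ra and the transcription factor Stat6 had ratios of 1.48 (1.01 to 2.17) and 1.20 (0.887 to 1.62). Of the genes of mucus hydration and granule release, 12 of 29 were higher and 2 lower, with a median of 0.91, and 5 higher and 4 lower relative to the median gene. Ano1, a calcium-gated chloride channel, had the ratio 3.74 (2.99 to 4.71), and the water channel Aqp3 5.15 (3.28 to 8.40). Aqp3 is also a basal marker, and by marker scores 4 Cre secretory cells would have been placed as basal-like. Their part in this ratio was not tested. The granule protein Gp2 had the ratio 28.4 (14.7 to 62.9) and Reg3g 9.81 (9.56 to 10.1). The antimicrobial proteins Bpifa1 and Lyz2 had the opposite order, 4.32-fold lower (4.17 to 4.47) and 2.35-fold lower (2.26 to 2.45) in the Cre cells.

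Of the 19 club cell identity genes, 3 of which the gate used, 0 were higher and 2 lower, with a median of -0.37, and 9 were lower relative to the median gene. Cyp4b1, a xenobiotic enzyme of club cells, had 1487 control UMIs (196 CPM) and 344 Cre UMIs (54.3 CPM), 3.60-fold lower (3.20 to 4.06), and Scgb1c1 at 119 and 48.3 CPM, 2.45-fold lower (2.15 to 2.80). Among Cre cells, Cyp4b1 stood at 114 CPM in those with none of the 10 genes and at 45.4 CPM in those with at least 5, and at 190 and 228 CPM in such control cells. Retnla, a resistin-like protein, stood at 5436 CPM in Cre cells with none of the 10 genes and at 44340 CPM in those with at least 5, against 471 and 5729 CPM in the control library. Slc26a4 was found in each of these Cre groups, at 11.4 CPM with none of the genes, 20.4 CPM with 1 to 2, 54.8 CPM with 3 to 4 and 54.5 CPM with at least 5, and at 0 UMIs in all control groups. Chil4 was at 13760 CPM in the Cre cells with at least 5 and at 11.4 CPM in those with none.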

How the data were processed

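The authors deposited, for each library, a matrix of raw UMI counts of genes in barcodes, per the file headers, and the values are whole numbers. Cell Ranger 3.1.0, STAR and the build mm10 are named per the submitters' processing notes, and the matrix header names software version 3.0.0; how the matrices were filtered and which annotation was used is not given in the sources used here. Cells were kept at 500 or more UMIs, 200 or more genes and at most 20% mitochondrial UMIs. Scrublet (scanpy 1.11.5, expected rate 0.06) called 420 control and 454 Cre doublets, which were left out. The libraries share 68 barcodes, 0 of them among kept secretory cells. Cells outside the secretory gate took the type with the highest mean marker score (at least 3 markers, score 0.5 and margin 0.2, set after seeing the data). Counts were summed per type and library as CPM. Free RNA was not subtracted. Of the listed genes 30934 were matched to GENCODE M21 by identifier. edgeR 4.0.16 gave the TMM factors. The 10 genes and all lists were chosen with earlier results of these data known. Named besides them are the up to 4 highest and 2 lowest genes of each list past 2-fold, by the interval bound nearest 1, and the 5 genes most like a member with at least 50 UMIs. Muc1, Muc4, St6gal1, Foxa2, Il4ra, Stat6, Retnla, Scgb1a1, Scgb3a1 and Foxj1 were named after their values were seen. The ratio of levels and its interval were run on simulated Poisson counts of the class sums. That simulation leaves out the uneven spread of UMIs over cells, so it does not check the intervals for it.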

Additional observations from a re-analysis of the deposited data

Results flagged for a closer look

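Barcodes left out by the filters are outside the comparisons above, and 4 of the genes stood higher there in the Cre library by more than counting error. In the 2146 left-out barcodes of the Cre library Muc5b stood at 24.4 CPM (173 UMIs), against 10.9 CPM (56 UMIs) in the 1132 of the control library. Clca1 stood at 13.4 CPM (95 UMIs), against 0 UMIs. Agr2 stood at 4.65 CPM (33 UMIs), against 1.17 CPM (6 UMIs), and Tff2 at 6.20 CPM (44 UMIs), against 0.586 CPM (3 UMIs). Of the other genes, Tff1 had 0 and 5 UMIs and Itln1 0 and 1 in the control and Cre library, and Fcgbp had 6 and 2 and Spdef 2 and 1, with intervals of the ratio that include 1. Muc5ac and Foxa3 had 0 UMIs in both. Of 12240 genes with at least 20 UMIs in these barcodes, 2.41% were past 2-fold upward and 8.47% downward in the Cre library. These barcodes include doublets and gene-poor or mitochondria-rich barcodes, which were not separated here. Their mixture differed: 86 control and 1035 Cre barcodes had under 200 genes, while 643 and 686 were over the mitochondrial limit. The part of this difference in the levels was not tested.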

How the results depend on the processing

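No paired analysis was possible because each genotype has 1 library, and for the same reason no library could be left out in turn. The limits are this single pool per genotype, counting error and the small number of secretory cells. The log2 ratio of the summed 10 genes, 3.79 (3.75 to 3.83), was 4.26 with cells thinned to 1000 UMIs, 4.203 as the mean of per-cell CPM, 3.30 with the gate secretoglobins out of the total, 3.25 with TMM factors and 3.26 with the median of ratios. With alternatives chosen after seeing the data it was 3.71 with the gate at 10% and 3.68 without the cells that pass another type gate than AT2, and with shared barcodes left out it was 3.79. The log2 ratio of the share of secretory cells with a Muc5ac or Muc5b UMI, 1.55 (1.11 to 2.01), was 2.71 after thinning. That of the share of kept cells that are secretory, -0.06 (-0.31 to 0.19), was -0.49 with the gate at 1%, which takes in 122 more control and 29 more Cre cells. The cause of the other shifts was not tested. All 10 genes stayed at least 2-fold higher under 15 of 16 alternatives, and with thinning 8 did, as Spdef and Foxa3 fell to the floor. Dropping the UMI minimum or raising it to 50 could not alter this count, as the sparsest gene, Foxa3, had 86 UMIs. Leaving out shared barcodes could not alter it either, as 0 of them were kept secretory cells. The 8 genes with a measured ratio had 109 alternative values, all 2-fold or higher, with log2 ratios from 1.36 to 6.86. Among these, the values with shared barcodes left out only repeat the main ones. The 109 values leave out the thinned values of Muc5ac, Spdef and Foxa3, which had 0 control UMIs after thinning and so no ratio.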

Other observations

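Outside the secretory gate, 3 Cre cells and 0 control cells held at least 3 of the 10 genes. The richest was a cell of no marker type with 763 UMIs, of which 1.97% were secretoglobins, just under the limit of 2%, and it held 5 of the genes, with 12 Tff2 UMIs, 8 of Clca1, 6 of Muc5b, 5 of Agr2 and 1 of Itln1. Another Cre cell of no marker type, with 1.03% secretoglobins, held 11 Muc5b and 4 Agr2 UMIs. The fibroblast-like cell with 27 Tff1 UMIs had 15606 UMIs in all and 0.0320% secretoglobins. An AT2-like Cre cell with 0.162% secretoglobins held 6 Muc5b UMIs, as did another with 0.0519%.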
